A study of Mus musculus with 2 samples.

Results

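The genes described here are 10 mouse genes for chains of interferon and cytokine receptors: Ifnar1, Ifnar2, Ifngr1, Ifngr2, Il10ra, Il10rb, Il21r, Il4ra, Il2rg and Il6ra. They are 10 of 21319 protein-coding genes that could be placed with a strand on the mm10 assembly. Each was given every ELF1 peak whose summit lay inside the gene or within 50 kb of a start site, and a summit within 1 kb of a start was counted as a promoter peak. That rule assigned them 65 of the 29086 peaks of the optimal list, which the authors called on both replicates together. The rule names the genes and uses no peak value, and the genes were picked with earlier results of these data known.

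The peaks come from ChIP-seq with an ELF1 antibody in CH12.LX, an immortalized B-cell lymphoma line derived from a female mouse of the strain B10.H-2aH-4bp/Wts. The study had 1 group with 2 biological replicates, no second condition and no other antibody, and both replicates stem from 1 donor animal. CH12.LX is a single tumour line, and no agent was named in the labels, so the binding of ELF1 after interferon or cytokine exposure was not measured. Peak signal, the caller's own value for each peak, has no stated scale and differs between lists. It was therefore read within a list. Where signals of the replicates are set side by side or as a ratio, they are a description without a stated common scale. Read depth is unknown, and no test between samples was possible.

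ELF1 belongs to the ETS family of transcription factors, which bind DNA around a GGAA core, and it is expressed in lymphocytes. Interferons and the interleukins named here signal through class I and class II cytokine receptors, which pair a ligand-binding chain with a partner chain and act through Janus kinases (JAKs) and the STAT transcription factors they phosphorylate. B cells use several of them: interleukin 4 and interleukin 21 guide class switching and differentiation, and the interferon receptors set the response to infection.

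The stretches shown first carry the strongest promoter peak of the set, the ETS words under some of its other peaks, and promoters that differ in words or binding. The promoters are RefSeq sequences of assembly GRCm38.p6, 250 bases before to 50 after a start, printed along the gene. Of the 10 genes, 8 had an entry, and Il10ra and Il10rb had none. Capitals mark every GGAA core, printed as TTCC where the core lies on the opposite strand. The Ifnar1 promoter, chr16:91484965-91485264 on the plus strand, held 7 cores and 3 copies of CGGAAG, and the Il2rg promoter, chrX:101268206-101268505 on the minus strand, held 5 cores and 1 copy. The Il4ra promoter, chr7:125552021-125552320 on the plus strand, held 3 cores and no CGGAAG, and it had no optimal peak.
Ifnar1 promoter: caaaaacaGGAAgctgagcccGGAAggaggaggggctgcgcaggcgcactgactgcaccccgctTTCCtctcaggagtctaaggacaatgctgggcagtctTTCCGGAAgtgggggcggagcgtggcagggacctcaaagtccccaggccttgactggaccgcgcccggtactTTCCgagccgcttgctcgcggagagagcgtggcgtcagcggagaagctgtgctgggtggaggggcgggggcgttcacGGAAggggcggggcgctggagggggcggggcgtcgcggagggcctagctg
Il2rg promoter: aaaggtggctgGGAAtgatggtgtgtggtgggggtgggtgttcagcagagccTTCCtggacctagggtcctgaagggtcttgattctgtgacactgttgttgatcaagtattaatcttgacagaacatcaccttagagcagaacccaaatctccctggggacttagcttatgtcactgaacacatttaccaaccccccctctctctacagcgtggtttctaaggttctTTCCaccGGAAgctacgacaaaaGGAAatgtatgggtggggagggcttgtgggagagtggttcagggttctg
Il4ra promoter: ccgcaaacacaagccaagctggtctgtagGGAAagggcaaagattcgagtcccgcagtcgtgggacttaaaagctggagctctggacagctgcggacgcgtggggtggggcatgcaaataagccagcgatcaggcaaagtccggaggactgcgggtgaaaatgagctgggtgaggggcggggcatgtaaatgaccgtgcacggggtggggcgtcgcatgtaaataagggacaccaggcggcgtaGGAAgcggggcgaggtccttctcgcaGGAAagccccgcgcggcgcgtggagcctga

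Summit sequences were read from the mm9 genome for the mm9 peak list, 50 bases to each side of the summit and along the gene. On the plus strand they are chr16:91452303-91452403 and chr16:91465060-91465160 upstream of Ifnar1, chr16:91373385-91373485 at the Ifnar2 promoter, chr16:91546801-91546901 before and chr16:91550005-91550105 inside Ifngr2, and chr7:132782525-132782625 beyond the end of Il21r. The stretch chr16:91465060-91465160 also lies at the start of another gene, A930006K02Rik. The Il6ra stretch is chr3:89715161-89715261 on the minus strand. Capitals again mark the GGAA core on either strand. The first 3 stretches hold CGGAAG and the Ifnar2 stretch holds AGGAAG as well, while the last 4 hold AGGAAG and no CGGAAG.
Ifnar1 far upstream: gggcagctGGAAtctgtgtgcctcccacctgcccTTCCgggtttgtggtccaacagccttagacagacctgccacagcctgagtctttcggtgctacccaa
Ifnar1 near upstream: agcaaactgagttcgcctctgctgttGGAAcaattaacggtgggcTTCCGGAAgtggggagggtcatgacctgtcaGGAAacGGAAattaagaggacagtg
Ifnar2 promoter peak: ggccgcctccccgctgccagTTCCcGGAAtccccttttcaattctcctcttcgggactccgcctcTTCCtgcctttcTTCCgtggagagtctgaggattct
Ifngr2 promoter peak: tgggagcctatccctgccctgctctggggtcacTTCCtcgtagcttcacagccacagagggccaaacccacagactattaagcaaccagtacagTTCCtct
Ifngr2 intron: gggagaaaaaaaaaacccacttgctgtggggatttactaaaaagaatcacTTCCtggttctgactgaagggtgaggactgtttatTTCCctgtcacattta
Il21r downstream: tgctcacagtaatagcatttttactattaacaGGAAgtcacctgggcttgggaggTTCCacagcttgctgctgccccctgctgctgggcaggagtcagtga
Il6ra intron: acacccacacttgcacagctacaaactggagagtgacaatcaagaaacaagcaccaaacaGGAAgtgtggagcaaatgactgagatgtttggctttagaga

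ELF1 peaks lay at the promoters of 8 of the 10 receptor genes in the optimal list, all but Il21r and Il4ra, where 42.7% of all protein-coding genes had one. All 10 genes had at least 1 peak in the gene or within 50 kb, against 72.7% of all genes. Binding at these promoters was uneven. Ifnar1 held one of the strongest promoter peaks of the genome, and the other 7 bound genes had signals below the median of all bound promoters. The median promoter signal was 50.1 over the 8 bound receptor genes and 97.6 over the 9101 bound genes of the genome.

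**Figure D1:**
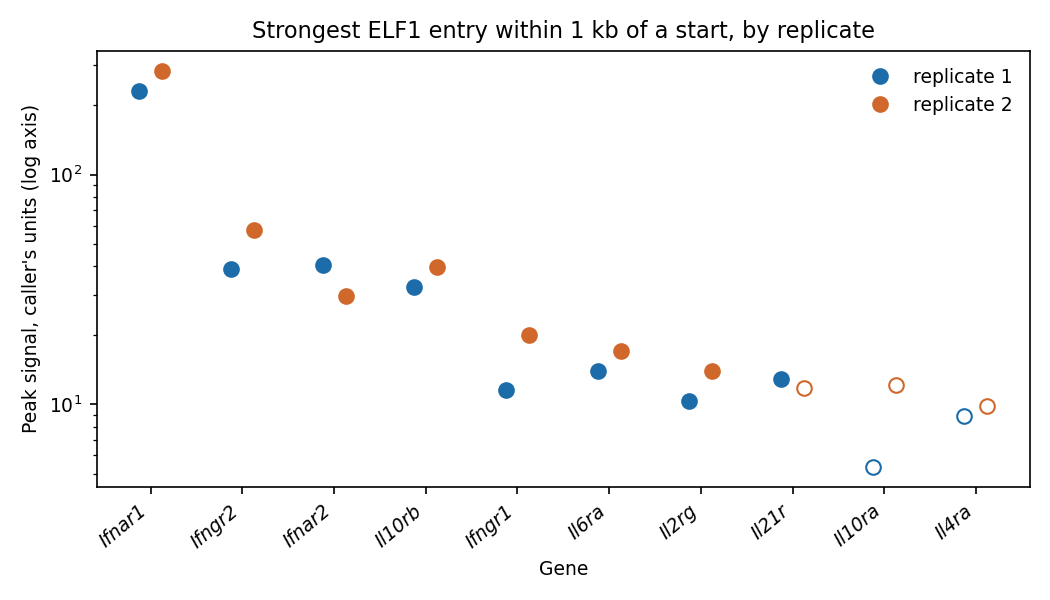
Signal of the strongest ELF1 entry within 1 kb of a start (caller's units, log axis) for each of the 10 genes, with replicate 1 and replicate 2 as separate points; filled points are among the 29086 strongest entries of that replicate and open points are not. Ifnar1 stands above every other gene in both replicates, at 230.7 and 283.2, while Il10ra and Il4ra have open points only.

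Ifnar1 encodes the chain of the type I interferon receptor that associates with the kinase Tyk2. Its promoter peak, chr16:91484855-91485214, had a signal of 512.3 and ranked 66 of 29086, with the summit 11 bp upstream of the outermost start. The entry there had a signal of 230.7 in replicate 1 and 283.2 in replicate 2, ranks 111 and 38. Both replicates placed it far above any other receptor promoter, the next being 40.5 in replicate 1 and 57.4 in replicate 2. Of all bound genes, 68 had a promoter peak at least as strong, 0.747%. In the mm9 list the same promoter ranked 86 of 18804, so 0.457% of that list was at least as strong, and 0.227% of the optimal list. The mm9 summit lay 219 bp upstream of the nearest mm9 start. The printed promoter was placed on another mm10 start, downstream of the outermost one.

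Ifnar2 encodes the partner chain, which binds type I interferons with high affinity. It had a pair of promoter peaks. The stronger, chr16:91373006-91373369, had a signal of 68.0 and lay 405 bp inside the gene, with 40.5 in replicate 1 and 29.7 in replicate 2. The other lay 93 bp upstream at 31.8, with 11.6 and 20.9. The stronger peak was higher in replicate 1 and the weaker one in replicate 2, though in each replicate the downstream peak was the higher of the pair. The strongest peak of Ifnar2 was not at its start but 5.94 kb upstream, with a signal of 100.6 (37.6 in replicate 1, 62.1 in replicate 2). Its summit lay inside the noncoding RNA gene Gm36587.

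The chains of the type II receptor, which binds interferon gamma, differed from each other. Ifngr2, the signal-transducing chain, had a promoter peak of 93.3 at chr16:91546394-91546757, 483 bp upstream, with 38.9 in replicate 1 and 57.4 in replicate 2. It had a stronger peak inside the gene, chr16:91549737-91549883, 2.75 kb from the start, at 143.2 (52.4 and 90.5), which the mm9 annotation places in an intron. Ifngr1, the ligand-binding chain, had a weaker promoter peak of 25.2 at chr10:19591404-19591767, 363 bp upstream. Replicate 2 held it at 20, and replicate 1 had no entry within 100 bp of that summit, its strongest promoter entry being 11.5 at 224 bp upstream. Ifngr1 had the fewest peaks of the 10 genes, 3, and the strongest of them lay 7.6 kb upstream at 52.3 (21.9 and 29.8).

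The chains of the interleukin 10 receptor also differed. Il10rb, the chain shared with receptors of the interleukin 22 and interferon lambda group, had a promoter peak of 70.9 at chr16:91406112-91406475, 137 bp inside the gene, with 32.4 in replicate 1 and 39.7 in replicate 2. A second summit 840 bp inside the gene had a signal of 10.5 and no entry within 100 bp in replicate 1. Il10ra, the ligand-binding chain, had the weakest promoter call of the 8, 18.4 at chr9:45268064-45268427 and 903 bp inside the gene, close to the 1 kb limit. Replicate 2 held it at 12.1, rank 32186, and replicate 1 had no entry there, only 5.35 at 46 bp inside the gene, rank 86122. Neither is among the 29086 strongest entries of its replicate. The main binding near Il10ra was distal: a peak 22.9 kb from the start and beyond the end of the gene, chr9:45246180-45246347, had 190.6 (88.0 and 101.2), and a peak 31.5 kb upstream had 96.5 (45.0 and 58.3). The summit at 22.9 kb lay inside another protein-coding gene, BC049352. Both distal peaks were high in both replicates, unlike the promoter call.

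Il2rg encodes the common gamma chain shared by the receptors for interleukins 2, 4, 7, 9, 15 and 21. Its promoter peak, chrX:101268119-101268482, had a signal of 25.2 with the summit 46 bp upstream, at 10.3 in replicate 1 and 14.0 in replicate 2. A second peak, which overlaps it, lay 247 bp upstream at 11.6. Both replicates held the first summit at a low level, ranks 27393 and 26816, near the end of the 29086 entries considered. The other peaks within 50 kb sat at starts of other genes: 170.6 (73.6 and 93.4) at 87 bp from the start of Snx12, a sorting nexin gene, and 29.3 (18.0 and 10.8) at 325 bp from that of Foxo4, a forkhead factor gene.

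Il4ra encodes the chain that binds interleukin 4, and Il21r the one that binds interleukin 21; both pair with the common gamma chain. Neither had an optimal promoter peak. For Il21r the conservative list held a promoter peak of 17.2 at 15 bp inside the gene, replicate 1 held 12.9 (rank 20746) and replicate 2 held 11.8 (rank 33201, at 165 bp upstream). For Il4ra the replicates held 8.88 and 9.86, ranks 33595 and 41703, so it was outside the strongest entries of both. The pooled relaxed list held 19.1 at Il4ra, rank 33120, and 18.4 at Il10ra, rank 34648, so the promoter entry of Il4ra, which was not called, was no weaker there than that of Il10ra, which was. The nearest optimal summits lay 1.85 kb upstream of Il21r and 2.68 kb inside Il4ra. Il21r had stronger distal peaks, 121.8 (45.6 and 78.3) at 35.6 kb and 74.1 (38.0 and 37.7) at 34.5 kb from the start, both beyond the end of the gene, and 51.1 (26.2 and 24.7) at 2.56 kb inside it. The 6 peaks of Il4ra had signals of 20.2 to 42.1, and all 6 were counted for Il21r too.

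Il6ra encodes the ligand-binding chain of the interleukin 6 receptor. It had promoter peaks at 674 bp upstream (chr3:89913688-89914051, 32.1, with 14.0 in replicate 1 and 17.1 in replicate 2) and at 163 bp upstream (17.5, with no entry in replicate 1 and 4.88 in replicate 2). Its strongest peak, in an intron by the mm9 annotation, was chr3:89911244-89911337, 1.91 kb from the start, at 115.6 (59.9 and 54.7). Il6ra had the most peaks of the 10 genes, 16, of which 10 lay inside the gene, a gene of 43873 bp. At its far edge, peaks of 34.9 and 32.7 lay at the start of Atp8b2, a gene for a phospholipid-transporting ATPase. The first had no entry in replicate 1 and 26.7 in replicate 2, and the second had 9.57 and 23.4.

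**Figure D2:**
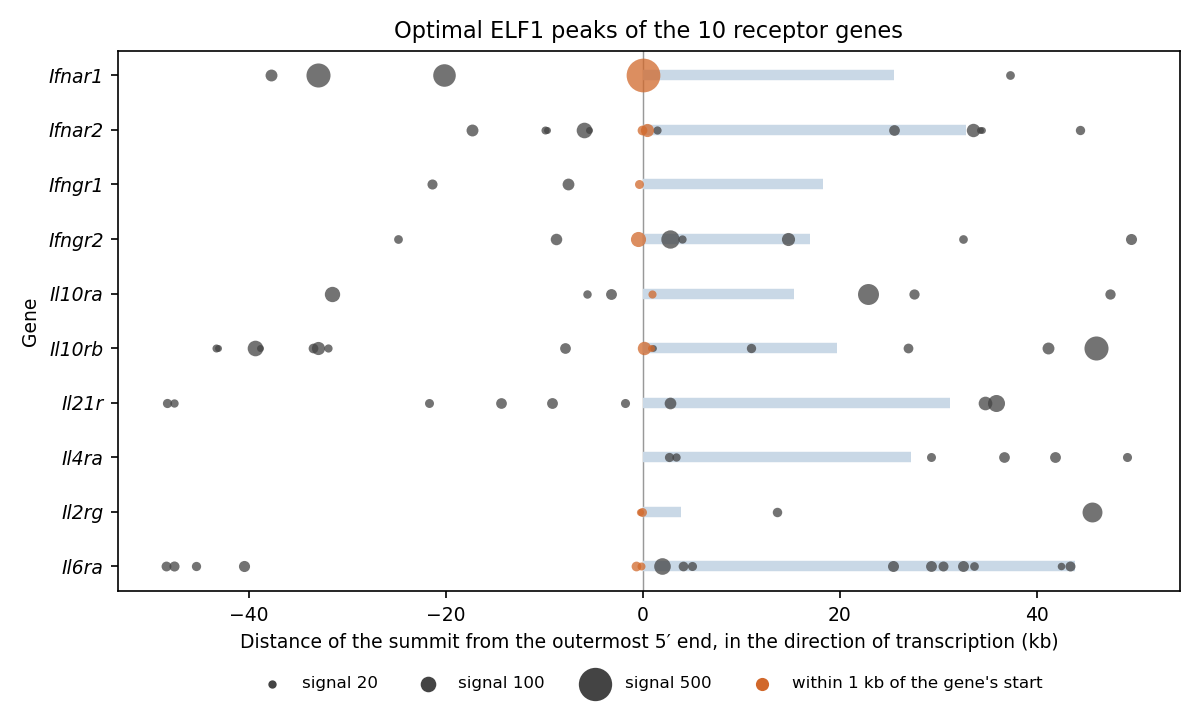
Every optimal peak of each gene by the distance of its summit from the outermost 5′ end in kb, upstream to the left, with point area rising with signal, bars for the gene body, and promoter peaks coloured. Il6ra and Il10rb have the most points (16 and 15), Ifngr1 has 3, and the points of Il10ra, Il2rg and Ifngr1 at the start are small beside those farther away.

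The receptor genes had many peaks around them. The median was 7.5 peaks per gene over the 10 receptor genes and 2.0 over all genes, and the range over the receptor genes was 3 to 16. Only 0.901% of all genes had as many peaks as Il6ra, 1.19% as many as Il10rb and 2.45% as many as Ifnar2. These counts include weak entries, and 6 of the 65 peaks overlapped another. In the conservative list Il6ra had 12, Il10rb 11 and Ifnar2 8, and in the mm9 list 8, 9 and 7. The median over the 10 genes was 8.0 and 5.5 in these lists, against 2.0 over all genes in each. For Ifngr1 the share was 46.5%, so it lay in the middle of the genome. For the remaining receptor genes it ran from 8.42% for Il21r to 35.9% for Il2rg. Because windows overlap, these counts are not independent: of the 65 peaks, 44 belonged to 1 gene and 21 to 2. Ifnar2 and Il10rb, with starts 33.4 kb apart, shared 12 of their 13 and 15 peaks. Il21r and Il4ra, with starts 51.0 kb apart, shared 6 of 9 and 6.

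The interferon receptor cluster on chromosome 16 holds Ifnar2, Il10rb, Ifnar1 and Ifngr2 in that order on the plus strand, and 26 of the 65 peaks lay in or around it. The gap between Il10rb and Ifnar1 held strong peaks. One lay 32.9 kb upstream of Ifnar1, chr16:91451983-91452226, at 254.6 (112.8 and 141.4), rank 1610. Another lay 20.1 kb upstream, chr16:91464798-91464992, at 222.5 (89.4 and 132.3). It was 218 bp from the start of the gene A930006K02Rik and so counts as a peak at another gene's start. With the promoter of Ifnar1 these were the strongest peaks of the set, and all of them were high in both replicates. Of the 65 peaks, 4 were in the strongest 10% of the optimal list, these and the one beyond Il10ra.

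**Figure D3:**
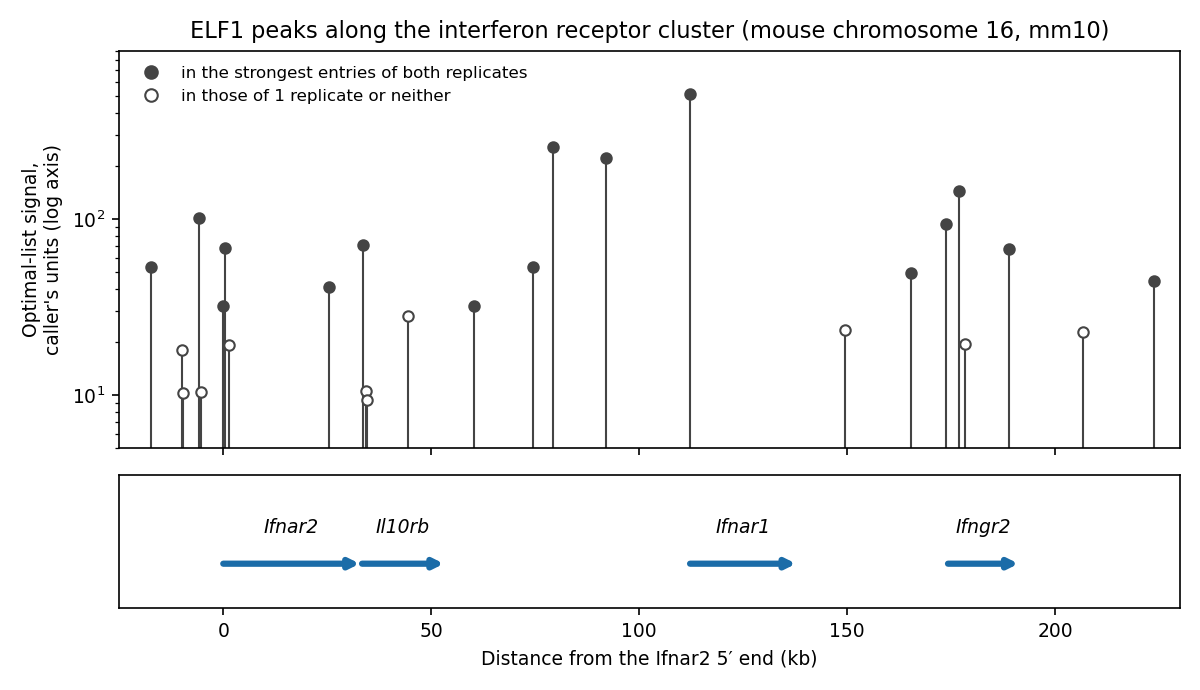
Optimal ELF1 peaks along the chromosome 16 cluster by distance from the Ifnar2 5′ end in kb, with signal on a log axis; filled points were in the strongest entries of both replicates, and arrows below show the genes and their direction. The Ifnar1 promoter peak (512.3) and the peaks 32.9 and 20.1 kb before it are the tallest, and the weakest points are open.

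Of the 65 peaks, 12 lay at a receptor promoter, 5 at the start of another gene, and 48 more than 1 kb from every start used. Inside a receptor gene lay 24. The median signal was 34.9 over these peaks and 39.7 over the whole list, so the typical peak near these genes was no stronger than the typical peak of the list. In the mm9 list, which was called separately, the genes had 40 peaks: 9 in introns, 1 in a coding exon, 2 in noncoding exons and 28 outside the genes.

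The replicates were compared through their own lists. Of the 65 peaks, 38 (58.5%, exact interval 45.6 to 70.6%, counting error only) had a summit within 100 bp among the strongest entries of both replicates, against 62.9% of all optimal peaks. A further 15 were in those of 1 replicate and 12 in those of neither. Counting every entry, 55 of the 65 had a partner in both, and 85.4% of all optimal peaks did. Of the 65, 7 had none in replicate 1 and 3 none in replicate 2. Over those 55 the signal in replicate 2 was a median of 1.27 times that in replicate 1, and over all optimal peaks 1.33 times. The ratio ran from 0.519 to 5.59, and the widest were weak peaks: 3.88 and 21.7 at Il10rb, and 3.73 and 20.3 between Ifnar1 and Ifngr2.

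**Figure D4:**
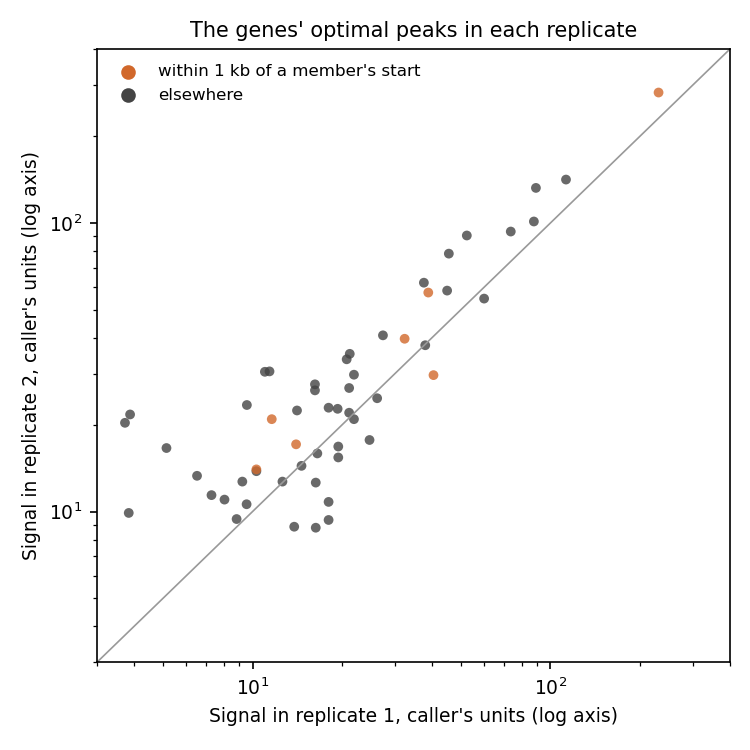
Signal in replicate 1 and replicate 2 of the 55 peaks of the receptor genes found in both (caller's units, log axes), with the line of equal values; promoter peaks are coloured. The lowest and highest ratios, 0.519 and 5.59, belong to weaker peaks, with optimal signals of 27.0 and 28.1, while other weak peaks lie near the line.

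The promoter count depended on the list. The conservative list also bound 8 of 10, with Il21r in and Il10ra out, against 42.0% of all genes. In the strongest entries of replicate 1 the count was 8 (all but Il10ra and Il4ra), against 43.1%, and in those of replicate 2 it was 7 (without Il10ra, Il21r and Il4ra), against 43.6%. The stronger 50% of the optimal list held only Ifnar1, Ifnar2, Ifngr2 and Il10rb, 4 of 10, against 34.5% of all genes. The mm9 list held the same 4, against 36.8% of all genes there. All 10 genes again had a peak in the mm9 window, against 67.7%. These 4 genes are the 4 of the chromosome 16 cluster.

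ETS words were counted near the mm9 summits of the receptor genes, and for the main words the share of the whole list lay inside the counting interval. The word CGGAAG lay within 50 bp of 10 of the 40 summits (25%, exact interval 12.7 to 41.2%), against 30.6% of all 18802 summits with sequence. AGGAAG lay at 21 (52.5%, interval 36.1 to 68.5%), against 43.3%, and the core GGAA at 37 (92.5%), against 92.6%. The stricter word CCGGAAG lay at 5, 12.5% against 18.8%. Both strands were read, and a summit can hold several words, since CCGGAAG contains CGGAAG. The strong peaks upstream of Ifnar1 carried CGGAAG, and the nearer one, at the start of A930006K02Rik, had it within the longer word TTCCGGAAG. That word was added after the data were seen and is a description only. It lay at 1 of the 40 summits (2.5%), against 0.915% of all summits. The core word of the interferon-stimulated response element lay at 1 of 40 (2.5%, against 1.64%) and the STAT word TTCNNNGAA at 2 (5.0%, against 3.83%).

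Of the 8 RefSeq promoters, Ifnar1 and Il2rg held CGGAAG, and 16.9% of 32851 promoters did. In the printed Ifnar1 promoter the copies centred 33, 51 and 196 bp from the peak summit, the middle one inside TTCCGGAAG. That word, added after the data were seen, was in 1 of the 8 promoters and in 0.517% of all promoters. In the Il2rg promoter the copy lay 33 bp from the summit. AGGAAG was in 5 of the 8 promoters, against 35.4%. It lay 8 bp from the weaker Il6ra summit, and Il4ra had it 4 bp before the start although no optimal peak was called there. The promoters of Ifngr1 and Il21r held no GGAA core in these 300 bases, which 96.0% of promoters held. The strongest promoter summits of Ifngr1, Ifngr2 and Il6ra, 363, 483 and 674 bp upstream, and of Ifnar2, 405 bp inside the gene, lay outside the windows searched. The ratio of observed to expected CpG ranged from 0.163 in Il2rg and 0.298 in Il21r to 0.935 in Il4ra, with a median of 0.384 over all promoters.

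Other genes of the pathway were read in the optimal list in the same way. Of 35 other class I and class II cytokine receptor genes, 7 (20%) had a promoter peak, below the 42.7% of all genes, and 27 had one in the window. The strongest were Il9r at 92.5, whose peak also lay at the start of the spliceosomal gene Snrnp25, Il12rb1 at 35.1, Csf2rb2 at 33.4 and Il6st, the shared gp130 signalling chain, at 29.0. Cntfr and Crlf2 were among the 28 without one. All 11 JAK and STAT genes had one: Tyk2 had 245.6 in replicate 1 and 256.0 in replicate 2, and by optimal signal Stat6 had 178.9 and Stat5b 153.9. The promoter peaks of Ifnar1 and of Tyk2, the kinase that associates with that chain, ranked 66 and 91 in the optimal list. The other JAK genes stood far lower, Jak3 at rank 7476, Jak1 at 11914 and Jak2 at 13956, and Ifnar2 was at 8321. Of 7 feedback regulators, 5 (71.4%) had one, led by the phosphatase Ptpn2 at 191.1 and the SOCS-family inhibitors Socs1 at 62.9, Socs2 at 46.0 and Socs3 at 38.9, and Cish and Usp18 had none. The Socs2 peak also lay at the start of 5730420D15Rik. Of 14 ligand genes, 3 (21.4%) had one, Il4 at 73.6, Il15 at 25.2 and Il10 at 19.3, and Ifna4, Ifnb1 and Ifng were among those without.

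As a check of the cell type, 7 of 8 B cell marker genes had a promoter peak, all but Cd22, against 1 of 6 T cell markers, 0 of 5 myeloid and 0 of 4 erythroid markers, and 42.7% of all genes. The B cell peaks ran from 256.9 at Cd79b to 16 at Pax5, which had no entry in replicate 1, and the T cell peak, at Cd2, had 16.9. Peaks do not measure expression, so this describes binding at the genes and does not show that a cell type is absent.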

How the data were processed

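ELF1 ChIP-seq was measured in 2 biological replicates of CH12.LX, 1 group, per the labels. The deposited files were narrowPeak lists on mm10 and mm9. Per the file headers, each replicate's relaxed list and the pooled one came from alignments with a control, the same for both replicates, and the optimal and conservative lists came from these by the irreproducible discovery rate. Which aligner and caller were run is not given in the sources used here. The peak signal is the deposited value in column 7, with no stated scale. Other deposited columns were not used.

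The members and lists were chosen with earlier results of these data known. Starts on mm10 came from a RefSeq promoter table (17492 genes) plus the outermost RefSeq end; GENCODE M1 gave only the strand for 3650 genes by symbol and 395 by synonym. For 350 genes no strand was found and 13 were not placed. The mm9 list used GENCODE M1 starts and the NCBIM37 sequence. No coordinates were converted. Replicate lists of 300000 entries were limited to their 29086 strongest. Intervals are exact Clopper-Pearson intervals at 95%. No test was made. Genes named were all 10 members and, per list, up to 4 with the strongest promoter peaks and up to 3 without one; some items that this rule names are not reported here. A930006K02Rik, Snx12, Foxo4, Atp8b2, Snrnp25 and 5730420D15Rik were named because a peak lay at their start, and BC049352 and Gm36587 because a peak lay inside them. AGGAAG, TTCCGGAAG and the single RefSeq end were added after the data were seen. Python 3.11.15, numpy 2.4.6, scipy 1.17.1, biopython 1.88 and matplotlib 3.10.9 were used. Counting was tested on simulated lists.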

Additional observations from a re-analysis of the deposited data

How the results depend on the processing

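All 10 receptor genes kept a peak in the window under every list and window tried. Within 50 kb, 72.7% of all genes had one in the optimal list and 67.7% in the mm9 list. No share of all genes is given for the other lists and windows, or for other promoter limits. Those counts are therefore not set against the genome. The promoter count was 8; it was 4 with the stronger 50% of the optimal list, 4 with the mm9 list and 4 with 1 mm9 start a gene, and 7 to 9 with the other limits and lists. Leaving out either replicate gave 7 to 8. The 65 distinct peaks became 29 in the stronger 50% and 40 in the mm9 list, and 61 without either replicate. The count in both replicates' strongest entries, 38, was 45 to 46 when only 1 replicate was asked for. The share of mm9 summits with an ETS word was 25% for CGGAAG, 52.5% for AGGAAG, a word added after the data were seen, and 92.5% for GGAA. The lists differ in length and word frequency by construction. The share of a list at least as strong as a gene's promoter peak moved too: in the mm9 list it was 0.457% for Ifnar1, 47.8% for Ifnar2, 31.6% for Ifngr2 and 42.0% for Il10rb, against 0.227%, 28.6%, 20.8% and 27.4% in the optimal list. For Il2rg it was 79.0% in the conservative list, 82.5% in the pooled list and 92.2% to 94.2% with either replicate left out, against 76.1%. Without replicate 1 it was 61.5% for Ifngr1 and 73.2% for Il6ra, against 76.1% and 61.3%. Promoter calls changed with the list. Il10ra was called in the optimal list and not in the conservative or mm9 list or the strongest entries of either replicate. Il21r was called in the conservative list and the strongest entries of replicate 1, but not in the optimal list. The counts of 4 of 10 stood against 34.5% of all genes in the stronger 50% and 36.8% in the mm9 list. There the receptor genes were close to the share of all genes. No paired analysis was possible because there was 1 group and no test. Peaks limit what can be said: depth is unknown, 1 cell line was used, and a gene near others shares its peaks with them, so a peak was not tied to a target gene.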
